A study of Mus musculus with 6 samples.

Results

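Regions favouring control libraries are stretches of chromatin with a called ATAC-seq peak in all 3 negative control libraries and in at most 1 of 3 Arid3a knockdown libraries. They were chosen by the presence of peaks: peaks of the 6 deposited lists that overlapped by 1 base or more on chromosomes 1 to 19, X and Y were merged into 85174 regions, and 1166 of these met the rule, 1.37% of all regions. The mirror rule, a peak in all 3 knockdown libraries and at most 1 control library, held for 1831 regions, or 2.15%. Because presence in these libraries made the choice, the counts and the strength of the control peaks describe the members and test nothing. Of the 1166 members, 236 had a peak in 0 knockdown libraries and 930 had a peak in exactly 1. The latter make up most of what is described here.

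The study asked which open chromatin depends on Arid3a. All 6 libraries came from purchased mouse primary vascular smooth muscle cells (VSMCs), with 50000 cells per assay, harvested 24 h after transfection. The 3 control libraries were given the negative control, and the knockdown libraries were given si-Arid3a#1, si-Arid3a#2 and si-Arid3a#3, 1 siRNA each. In the knockdown group, siRNA and library thus vary together. The labels describe a stimulation with angiotensin II without saying which libraries received it, and do not state whether replicates were grown as separate cultures. The p-values below thus measure only the spread between these libraries, which may be technical. Peak lists hold no RNA, so the level of Arid3a itself was not measured here.

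In ATAC-seq, a transposase cuts and tags DNA that is free of nucleosomes, so a peak marks an accessible promoter, enhancer or other regulatory element. Arid3a carries an AT-rich interaction domain, through which it contacts AT-rich DNA, and acts as an activator or a repressor of nearby genes. VSMCs form the contractile layer of the artery wall, and in culture or after injury they lower contractile genes and raise genes of migration, matrix and inflammation.

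The lists held 33248 to 52091 peaks, and the shortest were those of control replicate 2 with 33248 and knockdown replicate 3 with 41629. These libraries were also the shallowest, at an estimated 0.953 and 1.19 M tags (megatags, reads or fragments as the peak caller counts them) against 1.89 to 2.01 M in the other 4. The median peak held 8 tags at its summit in these 2 libraries and 11 tags in the others. Accessibility at the gene ends of 5 of 10 smooth muscle markers (Acta2, Tagln, Smtn, Lmod1 and Tpm2) was called in 6 of 6 libraries, whereas Myh11, Des and Synpo2 had no such peak in any. Of 6 endothelial and 6 epithelial markers, 0 had a gene-end peak in all 6 libraries. For leukocytes 2 of 6 did (Cd68 and Fcer1g), with Ptprc and Cd3e at 0 libraries, and for fibroblasts 1 of 6 did (Col1a1). Members lay near 1 endothelial gene (Cdh5), 1 leukocyte gene (Ptprc) and 1 fibroblast gene (Col1a1) of these lists, and near 0 smooth muscle or epithelial ones. Any part that other cell types have in the members was not tested.

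The sequences upstream of the 4 strongest members at gene starts are shown to let a reader see the DNA that they cover. Position does not always single out 1 gene. The Timm10 region also lay within 1000 bases of a start or end of Smtnl1, and the Man2b1 region of Wdr83os. Each line gives the 250 bases before the annotated transcription start from RefSeq (GRCm38.p6, the assembly of mm10), 5′ to 3′ on the strand of the gene. Capitals mark ATTAAA or ATCAAA on either strand, 6-base forms of the AT-rich site known for Arid3a. The windows are chr13:114817987-114818236 on the plus strand for Mocs2, chr8:85083019-85083268 on the plus strand for Man2b1, chr2:84826771-84827020 on the plus strand for Timm10 and chr11:54962941-54963190 on the minus strand for Tnip1.
Mocs2: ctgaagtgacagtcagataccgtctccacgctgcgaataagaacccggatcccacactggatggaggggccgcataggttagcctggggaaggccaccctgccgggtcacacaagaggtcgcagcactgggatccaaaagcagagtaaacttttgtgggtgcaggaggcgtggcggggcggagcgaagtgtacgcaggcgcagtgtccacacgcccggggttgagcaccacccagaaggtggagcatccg
Man2b1: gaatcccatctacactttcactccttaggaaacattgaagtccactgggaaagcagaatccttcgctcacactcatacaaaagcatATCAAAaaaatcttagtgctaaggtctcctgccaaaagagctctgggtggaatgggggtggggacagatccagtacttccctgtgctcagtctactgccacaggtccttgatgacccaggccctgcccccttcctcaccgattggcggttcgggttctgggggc
Timm10: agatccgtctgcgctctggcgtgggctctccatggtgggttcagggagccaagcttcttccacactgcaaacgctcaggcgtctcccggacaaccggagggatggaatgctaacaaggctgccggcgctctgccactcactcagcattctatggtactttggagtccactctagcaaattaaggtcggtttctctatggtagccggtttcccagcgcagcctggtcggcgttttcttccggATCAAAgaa
Tnip1: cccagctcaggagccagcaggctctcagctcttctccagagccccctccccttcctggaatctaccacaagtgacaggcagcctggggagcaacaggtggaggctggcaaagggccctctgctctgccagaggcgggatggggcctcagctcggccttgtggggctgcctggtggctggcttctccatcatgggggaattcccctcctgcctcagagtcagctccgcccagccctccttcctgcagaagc

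Man2b1 and Timm10 each held 1 match and Mocs2 and Tnip1 held none in these 250 bases. GC content was 61.6% at Mocs2, 52% at Man2b1, 56.4% at Timm10 and 65.2% at Tnip1, so the shown promoters range from GC-rich to nearly balanced. Across all members, 128 protein-coding start windows of 117 genes were overlapped, and 17 of these, 13.3%, held either hexamer. The same share was 9.23% for the 130 windows overlapped by regions favouring knockdown, 11.8% for the 1028 overlapped by other regions with a peak in 3 or 4 libraries, 11.0% for the 7178 overlapped by regions with a peak in all 6 libraries, and 18.1% for all 21263 protein-coding windows. These shares were not tested against each other. The median GC content of the windows was 56.6% under members and 60.8% under regions favouring knockdown. It was 61.2% under other regions with a peak in 3 or 4 libraries and 60.8% under regions in all 6. All protein-coding windows had 55.6%. A match says only that these letters occur, and no match says nothing about binding.

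In the lists as deposited, the single knockdown peak lay in knockdown replicate 2 for 422 of the 930 members with such a peak (45.4%), in replicate 1 for 353 (38.0%) and in replicate 3, the shallowest of the 3, for 155 (16.7%). Where it occurred, its median −log10 q, the caller's measure of peak confidence, was 5.96 in replicate 1, 5.99 in replicate 2 and 3.58 in replicate 3, with a median of 8, 8 and 5 tags at the summit. With all lists shortened to equal length the counts lay closer together, at 253, 278 and 246 in replicates 1, 2 and 3. By −log10 q, the remaining knockdown peak was above all 3 control peaks for 229 of 930 members (24.6%), and below all 3 for 155 (16.7%). These values are the authors' own per peak and are scaled within a library, so a comparison across libraries also moves with depth. In the mirror regions, the single control peak lay in control replicate 1 for 695 regions, in replicate 3 for 661 and in the shallow replicate 2 for 107.

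The number of members was then set beside the numbers that the same rule gives when any 3 of the 6 libraries carry the control label, which makes 20 relabellings. Of the 20, 11 gave 1166 regions or more (exact one-sided permutation p = 0.55, smallest possible p = 0.05 by the number of labellings). Every set without control replicate 2 gave 1750 or more, and every set with it gave 1166 or fewer. With that library among the controls, this p-value could not come near 0.05, and it says little about the knockdown. The difference of 1166 minus 1831, or −665, was matched or passed in size by 18 of 20 (exact two-sided permutation p = 0.9, smallest possible p = 0.1 by the number of labellings). Sets with both or neither of the shallow libraries differed by 4457 or more in size, which limited this p-value too. Counts followed the shallow libraries: sets that held control replicate 2 but not knockdown replicate 3 gave 976 to 1166 regions, sets with both gave 399 to 505, sets with knockdown replicate 3 alone gave 1750 to 1879, and sets with neither gave 4942 to 5212. Within the 6 sets that held control replicate 2 alone, the true labelling ranked highest, with 1166 against 1152 for the next, in which knockdown replicate 2 stood in for control replicate 1. Asking for a −log10 q of 5 or more in all 3 libraries of the set left 140 members, while the same 6 sets ranged from 136 to 154 and 3 of them were above 140. Over all 20 relabellings, 14 gave at least 140 such regions (exact one-sided permutation p = 0.7). Every set without control replicate 2 gave 358 or more, so this p-value was limited in the same way. With every list shortened to its 33248 strongest peaks, 1015 regions favoured control and 1414 favoured knockdown, and 13 of 20 relabellings reached 1015 (exact one-sided permutation p = 0.65). Sets without control replicate 2 still gave more, 1234 to 2094, than sets with it, 876 to 1021. Equal length thus did not remove this pattern, which again limited the p-value. The true labelling then no longer ranked highest among the 6 sets. Control replicates 2 and 3 with knockdown replicate 2 gave 1021. Adjusted over the 5 numbers compared this way, which include 2 shares given with the positions below, the adjusted p-values of the count, the difference and the stronger count were 0.875, 0.9 and 0.875. The count also moved with which library was left out: it was 2068, 5080 and 1948 without control replicates 1, 2 and 3, and 3722, 3800 and 2005 without knockdown replicates 1, 2 and 3, each time with fewer libraries to satisfy.

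**Figure D1:**
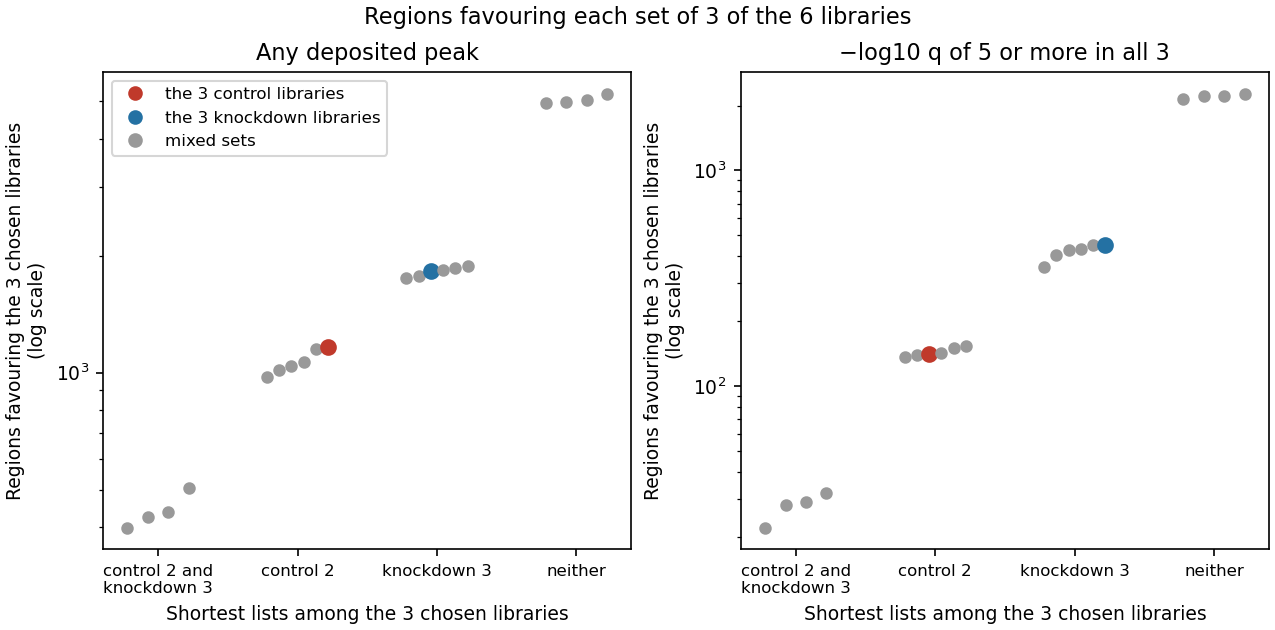
Number of regions favouring a set of 3 libraries (y axis, log scale), from any deposited peak on the left and with a −log10 q of 5 or more in all 3 on the right, for each of the 20 sets, grouped along the x axis by which of the shallow libraries, control replicate 2 and knockdown replicate 3, the set holds. Red marks the 3 control libraries (1166 regions), blue the 3 knockdown libraries (1831) and grey the mixed sets, and the real sets lie at the level of the mixed sets in their own column.

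Shallow libraries also missed regions that were strong elsewhere. Among regions with a −log10 q of 5 or more in the 5 other libraries, a peak was lacking in control replicate 2 for 2466 of 18807 (13.1%) and in knockdown replicate 3 for 657 of 15406 (4.26%). For each of the other 4 libraries this share lay between 0.419% and 0.513%. At a −log10 q of 10 or more, the shares were 5.12% for control replicate 2 and 0.757% for knockdown replicate 3. The part of depth in the peaks that members lacked was not tested. For the 155 members whose single knockdown peak was in replicate 3, the missing peaks were those of the deeper replicates 1 and 2.

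Members were weaker in the controls than the regions that more libraries shared. The smallest −log10 q among a member's 3 control peaks ran from 1.31, at the limit of the lists, to 11.1, with a median of 3.16. This was 2.75 for the 236 members with 0 knockdown peaks and 3.26 for the 930 with 1. It was 4.05 for regions with all 3 controls and 2 knockdown peaks and 7.14 for regions with peaks in all 6 libraries. A smallest −log10 q of 5 or more was reached by 140 members (12.01%), of which 12 had 0 knockdown peaks and 128 had 1, against 31.5% and 72.9% in the latter classes. A peak under 1 of the siRNAs was thus present for 128 of the 140 strong members, beside 930 of all 1166 members. Only 11 members reached 8, and 163 stayed under 2. The weakest control peak was that of control replicate 2 for 775 members (66.5%), of replicate 1 for 190 and of replicate 3 for 201. The median member held 8, 5 and 8 tags at the summit in control replicates 1, 2 and 3, with a median fold enrichment over local background of 5.73, 4.62 and 5.73. Regions with a peak in all 6 libraries held 18, 11 and 19 tags there. Regions favouring knockdown had a median smallest knockdown −log10 q of 3.59, and 449 of the 1831 reached 5 in all 3 knockdown libraries, against 140 of the 1166 members in the controls. Of all 24914 regions with a peak in 3 controls 4.68% were members, and of the 16212 whose smallest control −log10 q was 5 or more, 0.864% were.

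**Figure D2:**
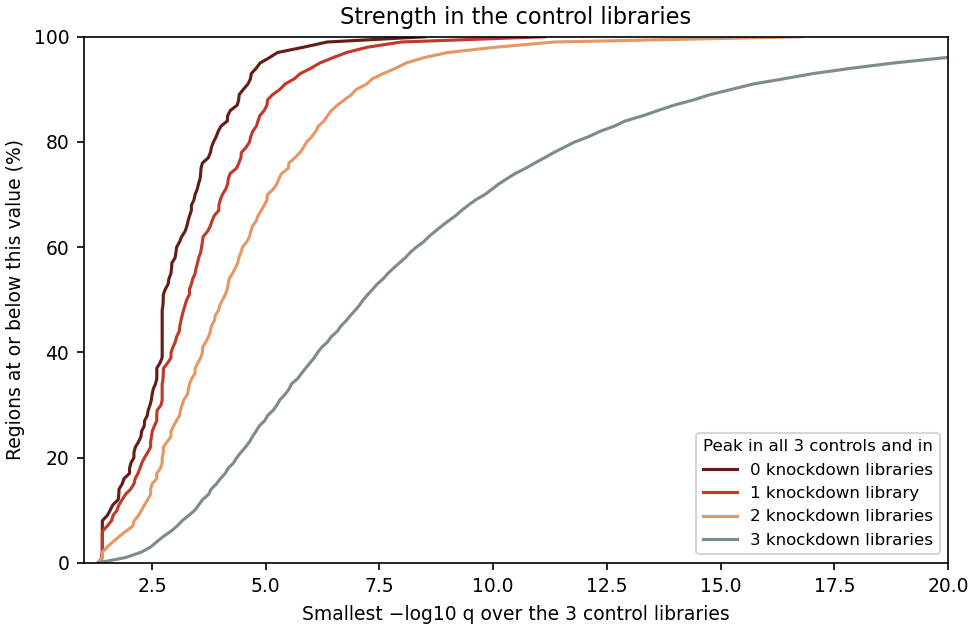
Cumulative share of regions (y axis, percent) at or below each smallest −log10 q over the 3 control libraries (x axis), with 1 line by the number of knockdown libraries with a peak there. Members with 0 or 1 knockdown peak have the lowest values, with medians of 2.75 and 3.26, regions with 2 knockdown peaks lie at 4.05 and regions with 3 at 7.14.

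Just outside the rule lay regions that 1 further knockdown peak kept out. The 3 strongest of these were in Tmem202, near Gata6 and in Cyb5a. Tmem202 is a transmembrane protein gene, Gata6 encodes a transcription factor that keeps VSMCs differentiated, and Cyb5a encodes cytochrome b5. At Tmem202 the 3 controls, in the order of their replicate number, had a −log10 q of 20.4, 17.3 and 16.8, while knockdown replicates 1 and 2 had 20.6 and 22.4. At Gata6 these values were 28.4, 15.3 and 18.6 against 15.3 and 19.4, and at Cyb5a they were 23.0, 15.3 and 28.1 against 29.0 and 28.9. All 3 regions lacked a peak in knockdown replicate 3 alone, and at Tmem202 and Cyb5a the knockdown peaks that were present exceeded all 3 control peaks by −log10 q. At Gata6 the fold enrichment was 12.5, 10.4 and 9.77 in the controls. Knockdown replicate 1, with 9.65, lay below these, and knockdown replicate 2, with 10.9, lay among them. Just inside the rule, the strongest member was weaker than these, with a smallest control value of 11.1.

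That strongest member lay 5.62 kb upstream of Bdkrb2 (chr12:105557320-105557785), the gene of the bradykinin B2 receptor, through which kinins act on vascular tone. The 3 controls had a −log10 q of 12.3, 11.1 and 13.4 and knockdown replicate 2 had 14.9, with 22, 17, 24 and 23 tags at the summit. The fold enrichment was 7.55 ± 0.521 (SD, n = 3) in the controls and 8.42 in the single knockdown library. By −log10 q the region was higher under si-Arid3a#2 than in any control, and no peak was called under the other siRNAs. A gene of receptor signalling also stood near the top. At 6.39 kb from Grk5 (chr19:60882906-60883433), a kinase that desensitises G-protein-coupled receptors, the controls gave 9.90, 9.17 and 10.8 and knockdown replicate 1 gave 8.82. Here 9 or 10 tags stood at each summit.

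Among chromatin genes, a region inside Mbtd1 (chr11:93908817-93909129), a subunit of the NuA4/TIP60 acetyltransferase complex, had a −log10 q of 18.8, 8.58 and 20.7 in the controls and of 30.0 in knockdown replicate 1, with 18, 9, 21 and 28 tags. The single knockdown peak was the strongest of the 4. Inside Tet3 (chr6:83435096-83435680), which oxidises 5-methylcytosine, the values were 10.7, 7.28 and 13.5 in the controls and 12.1 in knockdown replicate 1. By contrast, 2.77 kb from Ino80c, a subunit of the INO80 remodeller, the controls gave 12.5, 8.31 and 19.9 and knockdown replicate 3 gave 1.69, from 13, 10, 19 and 3 tags. That peak was the faintest knockdown peak among the 16 strongest members with 1 knockdown peak.

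Ehf, an ETS-family transcription factor best known from epithelia, held a region (chr2:103285624-103286005) with 14.7, 11.0 and 10.1 in the controls and 3.92 in knockdown replicate 2, from 15, 12, 11 and 5 tags. In Atg2b (chr12:105632273-105633046), which transfers lipid during autophagy, the controls gave 11.0, 9.17 and 8.76 and knockdown replicate 1 gave 5.81. In Ate1, an arginyltransferase that marks proteins for degradation, they gave 11.8, 7.74 and 8.26, and knockdown replicate 3 gave 3.58. At these 3 genes the knockdown peak lay below all 3 control peaks. The large scaffold protein gene Ahnak had 17.6, 8.08 and 10.8 against 14.0 in knockdown replicate 2, and Arhgap32, a GTPase-activating protein, had 8.66, 8.08 and 8.26 against 7.03 in knockdown replicate 1. Capn3, a calcium-dependent protease of muscle, had 8.70, 8.58 and 8.45 against 7.28 in knockdown replicate 2, where the 4 peaks held 8 to 10 tags. The knockdown peak lay among the control peaks at Ahnak and just below them at Arhgap32 and Capn3. The other members of the 16 lay in Cryzl1, Btbd11, Samd10 and Abtb2 and beside Pald1, with smallest control values of 7.34 to 7.75.

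Of these 16 regions, 12 lay inside genes, 4 outside and 0 at a gene end. The single peak was in knockdown replicate 1 for 6, replicate 2 for 7 and replicate 3 for 3, and it was above the weakest control peak for 7, above all 3 for 2 and below all 3 for 9. Control replicate 2 had the smallest control value in 12 of 16. After the 12 strongest members with 0 knockdown peaks, the next 6 lay in or near Bpifc, Snx24, Myo18a, Fign, Me3 and Mto1. Their smallest control values were 4.66 to 4.82 and those of the 16 were 7.28 to 11.1, ranks that are not matched, since the strongest members with 0 knockdown peaks come before these 6. In Myo18a, an unconventional myosin, the controls themselves spread from 13.2 in replicate 1 to 7.47 and 4.70 in replicates 2 and 3, with 13, 8 and 7 tags.

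**Figure D3:**
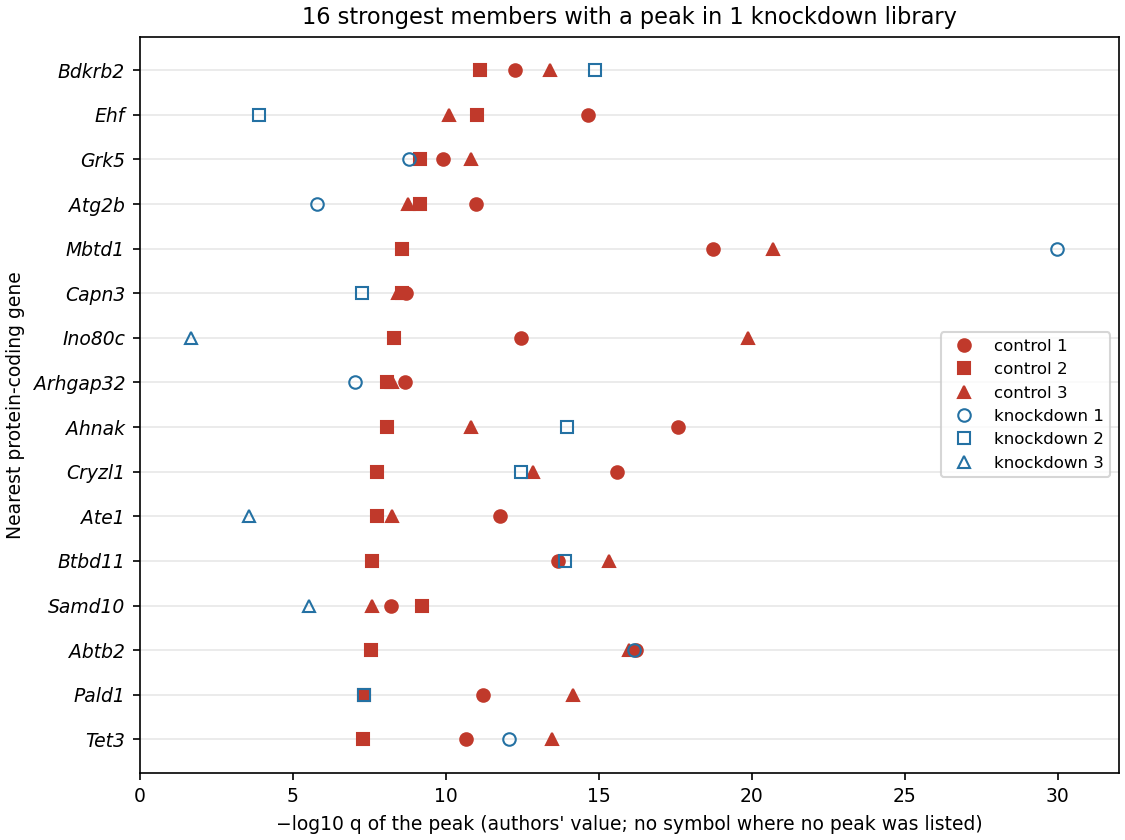
The −log10 q per library (x axis) at the 16 strongest members with a peak in exactly 1 knockdown library (y axis, by nearest gene), with filled red symbols for control and open blue symbols for knockdown libraries. The knockdown point lies above all 3 control points at Bdkrb2 and Mbtd1 and below all 3 at 9 genes.

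Of the 1166 members, 174 lay at a gene end, within 1000 bases of an annotated start or end of a protein-coding gene, and 13 of these had a smallest control −log10 q of 5 or more. Of the 13, 2 had 0 knockdown peaks, at Ppp5c and Tnip1. The other 11 were at Cstad, Timm10, Osbpl2, Man2b1, Gfod2, Pgbd5, 2310011J03Rik, Syt1, Rad51b, Smad5 and Mocs2. Those at Timm10, Man2b1, 2310011J03Rik and Rad51b also lay at a gene end of Smtnl1, Wdr83os, Pcsk4 and Zfyve26, in that order. At the Man2b1 start, a lysosomal mannosidase whose upstream sequence is printed above, the values were 13.8, 6.08 and 14.3 in the controls and 14.2 in knockdown replicate 2. At Mocs2, a gene of molybdenum cofactor synthesis, they were 7.89, 6.14 and 7.45 against 10.3 in knockdown replicate 2. The mitochondrial import gene Timm10 had 5.94, 7.32 and 6.70 against 6.65 in knockdown replicate 1, with 11 tags in each of the 4 libraries. At each of these 3 starts the single knockdown value lay within or above the range of the controls.

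Tnip1, which restrains NF-kappaB signalling through A20, had 6.435, 5.918 and 7.999 in the controls and no knockdown peak. Rad51b, a recombination repair gene, had 8.63, 5.62 and 6.11 against 6.74 in the shallow knockdown replicate 3. At Smad5, a signal transducer of BMP receptors, a region centred 0.117 kb upstream of the start (chr13:56702498-56703289) had 6.61, 5.43 and 8.27 against 5.78 in knockdown replicate 1, from 10, 8, 14 and 9 tags. The knockdown value lay among the control values at Smad5 and Rad51b. Gfod2, at the end away from its start, gave 11.0, 9.82 and 7.19 against 9.03 in knockdown replicate 1, again within the controls.

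Members were spread over many genes. Those within 100 kb of a protein-coding gene numbered 1058 (90.7%) and were assigned to 993 genes, of which 929 had 1 member, 63 had 2 and 1 had 3. The gene with 3 was Rbms3, a long RNA-binding protein gene on chromosome 9, whose members had smallest control values of 2.72, 2.72 and 2.27 from 3 tags each in control replicate 2.

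Of 14 lists of genes for VSMC state, matrix, signalling and chromatin, 12 held at least 1 member. Together the 276 genes had 2689 regions, of which 37 were members (1.38%, beside 1.37% of all assigned regions), and 66 favoured knockdown (2.45%). For members, the lists as a whole thus sat at the background. Over all regions, 2.15% favoured knockdown. Differences between single lists, given below, were not tested and rest on few regions.

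Contractile genes had 2 members of 138 regions (1.45%) and 5 regions favouring knockdown (3.62%), beside 1.37% and 2.15% of all regions. The members were near Cald1, which encodes the actin-binding caldesmon, and in Casq2, a calcium store protein. At Cald1 the controls gave 3.99, 2.22 and 6.84 and knockdown replicate 2 gave 7.10, while at Casq2 they gave 5.08, 1.75 and 8.27 with no knockdown peak. Regulators of the smooth muscle state had 2 of 192 (1.04%), and 5 of their regions favoured knockdown (2.60%). Their members lay near Notch3 (4.05, 2.78 and 3.40) and Prrx1 (6.16, 2.27 and 3.32), both with 0 knockdown peaks. All 4 members had a control peak with a −log10 q under 3.

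Collagens and other matrix genes had 6 members of 296 regions (2.03%), with 9 regions favouring knockdown (3.04%). At an end of Tnc, the gene of tenascin-C, the controls gave 6.11, 6.91 and 3.80 and knockdown replicate 2 gave 5.04. At the start of Col8a1, a short-chain collagen of the vessel wall, they gave 8.97, 3.44 and 10.1 and knockdown replicate 1 gave 6.97. The others were at Col1a1, Col3a1, Col5a1 and Col6a3, with smallest control values of 1.71 to 2.58. Proteases and their inhibitors had 2 of 98 (2.04%), and 2 of their regions favoured knockdown (2.04%). At Mmp3, the gene of stromelysin, the controls gave 7.42, 3.57 and 6.82, with no knockdown peak. At Ctsk, the gene of cathepsin K, they gave 4.87, 4.15 and 2.19 against 3.83 in knockdown replicate 2. Elastic fibre genes had 1 of 182 (0.549%), inside Fbln2 (6.93, 3.10 and 5.44), and 6 of their regions favoured knockdown (3.30%). Over all regions these shares were 1.37% and 2.15%.

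Among signalling genes, the TGF-beta and BMP list had 4 members of 246 regions (1.63%), and 7 regions favoured knockdown (2.85%). The members were at Smad5, Bmp4, Ccn2 and Tgfb2. Apart from Smad5, Bmp4 was the strongest, with 4.58, 3.85 and 6.04 against 3.82 in knockdown replicate 3, at a region 97.3 kb from the gene. The Hippo and RUNX list had 4 of 233 (1.72%), in pairs at Lats2 and Runx1, and 3 regions favoured knockdown (1.29%). Over all regions, 1.37% were members and 2.15% favoured knockdown. Near Lats2, the kinase that inactivates YAP, a region below the gene (chr14:57684721-57685134) gave 5.92, 10.2 and 7.18 against 13.7 in knockdown replicate 1, and another inside the gene (chr14:57709313-57709610) gave 7.70, 6.63 and 5.26 against 7.90 in knockdown replicate 2. By −log10 q, both Lats2 regions were thus strongest in the 1 knockdown library with a peak, and the siRNA differed between them. By fold enrichment, the region inside the gene had 6.38 in knockdown replicate 2, within the 6.26, 6.44 and 5.22 of the controls. Near Runx1, a transcription factor of blood and bone development, the strongest region of the list (chr16:92905633-92905906), 79.7 kb from the gene, gave 16.3, 8.51 and 18.6 in the controls with no knockdown peak. A weaker region inside the gene (chr16:92623952-92624339) gave 8.502, 4.97 and 4.79 against 4.90 in knockdown replicate 2.

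Growth factor genes had 3 of 221 (1.36%, beside 1.37% of all regions), in Igf1r, near Fgfr2 and at Pdgfd. Of their regions, 8 favoured knockdown (3.62%). Igf1r, the receptor of insulin-like growth factor, gave 7.41, 4.41 and 8.07 against 14.2 in knockdown replicate 2, and Fgfr2 gave 7.92, 1.64 and 5.95 against 4.48 there. The list of angiotensin, endothelin and calcium genes had 4 of 229 (1.75%). Of these, 2 were at Kcnma1, the pore of the BK potassium channel. Cacna1c, the pore of the L-type calcium channel, and Pde5a had 1 each. Cacna1c gave 6.84, 7.46 and 2.18 against 4.78 in knockdown replicate 3, and the stronger Kcnma1 region gave 7.51, 3.85 and 4.03 against 2.59 there. Of the regions of this list, 9 favoured knockdown (3.93%, beside 2.15% of all regions). Inflammation genes had 2 of 193 (1.04%), Tnip1 and a region near the chemokine gene Ccl20 (7.68, 3.78 and 3.60, with 0 knockdown peaks). Another 7 regions favoured knockdown (3.63%).

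The ARID family had 2 members of 126 regions (1.59%) and 0 that favoured knockdown, beside 1.37% and 2.15% of all regions. At the start of Kdm5c (chrX:152232688-152233219), a histone H3K4 demethylase with an ARID domain, the controls gave 14.1, 4.15 and 16.2 and knockdown replicate 1 gave 10.7, from 16, 6, 18 and 12 tags. Arid4a gave 3.23, 2.72 and 5.24 against 6.98 in knockdown replicate 2. Axon guidance genes, which also steer migrating cells, had 5 of 301 (1.66%): 2 in Plxna4 and 1 each in Robo2, Sema5a and Sema3a. Of their regions, 1 favoured knockdown (0.332%). The weaker Plxna4 region gave 4.92, 5.90 and 4.23 with no knockdown peak, and Robo2, a receptor of SLIT ligands, gave 8.17, 3.87 and 7.30 against 10.1 in knockdown replicate 1. The AP-1 list had 0 members of 85 regions, and the cell cycle list had 0 of 149, beside 1.37% of all regions. In each of these lists 2 regions favoured knockdown (2.35% and 1.34%).

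In position, members resembled other regions of like breadth across libraries. At gene ends lay 14.9% (95% exact binomial interval 12.9 to 17.1%), inside genes 44.2% (41.3 to 47.1%) and outside genes 40.9% (38.1 to 43.8%). The share at gene ends was 13.2% (11.6 to 14.8%) for regions favouring knockdown, 13.1% (12.5 to 13.7%) for other regions with a peak in 3 or 4 libraries, 33.8% for regions with a peak in all 6 and 17.3% for all regions. Among members, it was 13.6% (9.46 to 18.6%) with 0 knockdown peaks and 15.3% (13.0 to 17.7%) with 1. Intervals cover counting error only, since regions of the same libraries are not independent samples.

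Start windows, from 250 bases before to 50 after an annotated start, were overlapped by 114 members, 9.78% (8.13 to 11.6%). This share was 6.17% (5.11 to 7.37%) for regions favouring knockdown and 7.20% (6.76 to 7.66%) for other regions with a peak in 3 or 4 libraries. It was above the members' share in the classes that more libraries held, with 14.7% for 3 controls and 2 knockdown libraries and 27.6% for all 6, and it was 10.7% for all regions. Among the 20 relabellings this share was highest for the true labelling (exact one-sided permutation p = 0.05, the smallest possible), and adjusted over the 5 numbers compared p was 0.25. The comparison was made after the share had been seen. The 5 other sets with control replicate 2 and without knockdown replicate 3 reached 7.07% to 9.38%, so the margin was small. With lists of equal length the share was 16.8% and the same test gave an exact one-sided permutation p = 0.25, and without control replicate 2 the share was 6.34%. For the share at gene ends, 4 of 20 relabellings reached 14.9% (exact one-sided permutation p = 0.2, adjusted p = 0.5).

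**Figure D4:**
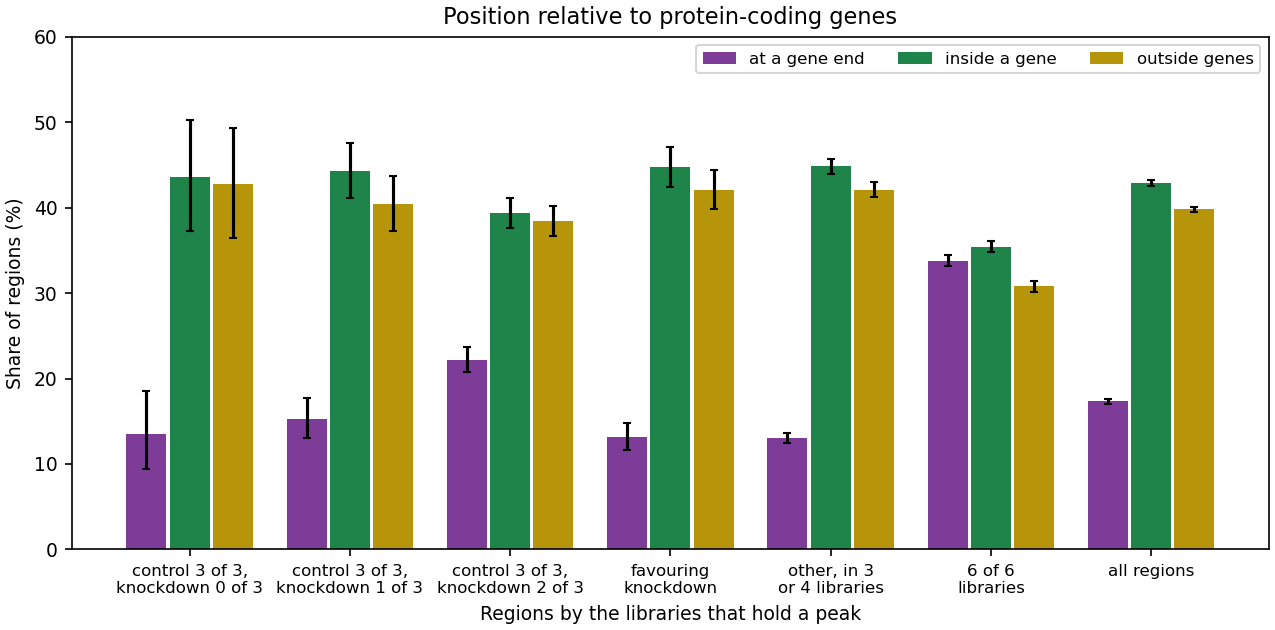
Share of regions at gene ends, inside genes and outside genes (y axis, percent, with 95% exact binomial intervals) for members with 0 and with 1 knockdown peak, regions with 2, regions favouring knockdown, other regions with a peak in 3 or 4 libraries, regions with a peak in all 6 and all regions. At gene ends the members lie at 13.6% and 15.3%, beside 13.2% for regions favouring knockdown and 33.8% for regions with a peak in all 6 libraries.

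Members were 467.5 bases wide at the median, against 428 for regions favouring knockdown, 405 for other regions with a peak in 3 or 4 libraries and 663 for regions in all 6. They lay a median of 23.3 kb from the nearest region with a peak in all 6 libraries, against 20.6 kb for regions favouring knockdown, and 9.26% lay within 5 kb of one, against 10.7%. Outside genes, the median distance to a gene was 31.2 kb, against 29.2 kb. A peak of an absent knockdown library lay within 100 bases for 11 members (0.943%) and within 500 bases for 88 (7.55%). It lay within 1000 bases for 159 (13.6%) and within 5000 bases for 432 (37.0%), and the median distance was 7588.5 bases. Overlapping peaks were merged, so the rule itself limits short distances, and other regions were not measured for comparison. By chromosome, the share of regions that were members ran from 1.07% on chromosome 17 to 1.71% on chromosome 8 among the autosomes. Chromosome 11 held the most members, 86, chromosome X held 21 (1.18% of its regions) and chromosome Y held 0.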

How the data were processed

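ATAC-seq was measured in 6 libraries, 3 per group. Bowtie2, Picard, MACS2 and build mm10 are named per the submitters' processing notes; the sources used here give no versions, duplicate handling or read shifting. Peaks were called separately in each library, per the file headers of the deposited peak names. Each deposited peak carries a score (10 times the −log10 q, cut to a whole number), a fold enrichment at the summit, a −log10 p, a −log10 q and a summit position, all the authors' values and scaled within a library. The smallest −log10 q, 1.30 to 1.32, fits a q cutoff of 0.05. No value was renormalised.

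Peaks were merged at 1 shared base (Python 3.11.15, pandas 2.3.3, numpy 2.4.6). The tags at a summit were recovered from fold and −log10 p under the Poisson model of MACS2, to within 0.001 for at least 99.996% of peaks, and the total tags were estimated with an assumed genome size of 1.87e+09, so they rank libraries only. The median of 8 to 11 tags per summit limits the precision of each value. Gene positions are those of 21887 protein-coding genes of RefSeq GRCm38.p6, of which 17492 have a start window in the promoter table. Exons were not separated from introns or UTRs. Each region was assigned to the nearest gene within 100 kb of its midpoint.

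The members and gene lists were chosen with earlier results of these data known. Regions were named by rule: the 16 strongest members with 1 knockdown peak, the 6 that follow the 12 strongest with 0, gene-end members with a smallest control −log10 q of 5 or more, genes with 3 members, listed genes (values for the strongest) and the 3 strongest regions with 2 knockdown peaks. The 4 promoters shown are those of the strongest members over a start window. Single numbers were compared over the 20 relabellings of the 6 libraries by exact permutation (numpy), with Benjamini-Hochberg adjustment over 5 numbers, and binomial intervals are exact (scipy 1.17.1). The counting steps were tested on simulated data. Alternatives were stricter peaks, equal list lengths, 50% coverage, each library left out, other numbers of knockdown libraries, other windows and a replicate block. The test of the start-window share and the strong-control count were added after seeing the data.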

Additional observations from a re-analysis of the deposited data

How the results depend on the processing

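The count of 1166 stayed within 1.5 times at a −log10 q of 3 or more, with equal list lengths and with 50% coverage (841, 1015 and 1611). It was 485 at 5 or more in every list and 140 when 5 was asked in the controls only, an alternative chosen after seeing the data. It was 236 with 0 and 4172 with at most 2 knockdown libraries allowed, and 2080 or 7284 in the 4 longest lists with 0 or at most 1 of 2 knockdown peaks. Leaving out 1 library at a time gave 1948 to 5080, with fewer libraries to satisfy. The difference from regions favouring knockdown, −665, ran from −5538 to 2392 in the same way. It reversed to 2392 without control replicate 2, to 597 without knockdown replicate 1 and to 735 without knockdown replicate 2. In these last the rule allowed 1 of 2 knockdown libraries. It did so too without knockdown replicate 3, where the difference stayed negative at −3364. The cause of the reversals was not tested.

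The gene-end share of 14.9% was 18.7% and 25.6% at a −log10 q of 3 and 5, 23.5% with equal lengths, 22.2% with 50% coverage, 12.2% and 20.2% with windows of 500 and 2500 bases, and 12.3% to 20.2% with 1 library left out. The start-window share of 9.78% was 12.5%, 19.8%, 16.8% and 16.3% under the first 4 of these and 6.34% to 13.6% with 1 library left out, with exact one-sided permutation p-values of 0.1 to 0.25 where all 6 libraries were used. The single knockdown peak was in replicates 1, 2 and 3 for 176, 210 and 24 members at a −log10 q of 5 and for 62 in replicate 3 at 3. With equal lengths replicates 1, 2 and 3 had 253, 278 and 246, and with 50% coverage replicate 3 had 253. With 1 library left out these numbers were 554 to 2535, 610 to 2594 and 237 to 604.

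Of 73 named members, 52 and 33 remained at a −log10 q of 3 and 5, 33 with equal lengths and 53 with 50% coverage. Leaving out a library relaxes the rule, apart from regions that split when the remaining peaks are merged anew. All 73 remained each time, which says little of their stability. Of the 16 strongest, 13 remained with 50% coverage (without Grk5, Atg2b and Pald1). A −log10 q of 3 or 5 keeps every control peak of the 16, so it says nothing of their stability.

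Same-numbered libraries were not paired by the labels, and their deviations correlated at −0.0521 to 0.0240. With a replicate block, labels exchanged within same-numbered pairs only, the difference was −665 with an exact permutation p of 1 over 8 relabellings. Depth differs between the libraries, and its part in the missing peaks was not tested. With 3 libraries a group, 1 region can reach no exact two-sided p below 0.1.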
